A study of Mus musculus with 11 samples.

Results

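Corticosteroid signalling in these brains was followed through 9 genes, taken by symbol from the 25938 genes of the deposited table. They are the 2 corticosteroid receptor genes, Nr3c1 and Nr3c2, and 7 genes known to respond to glucocorticoids, namely Fkbp5, Sgk1, Zbtb16, Per1, Tsc22d3, Ddit4 and Cdkn1a. The set was picked because some of its members were higher in mice given a free antisense oligonucleotide (ASO) than in control mice. The members were thus selected on the levels of Malat1 ASO against ATV:BACE1 libraries. Values of that comparison are therefore given as a description, with no test, and nothing is supported with them. All 9 symbols were found once each.

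RNA of single nuclei was counted as unique molecular identifiers (UMIs) in 11 libraries from mouse brain. All groups carry the same allele, a knock-in of the human transferrin receptor (TfR) in both copies (hTfR KI HOM). Each mouse was dosed intravenously in saline 4 times, a week apart, with collection 72 h after the final dose. The control group, ATV:BACE1 (n = 3, 57 mg/kg per dose), received a TfR-binding molecule without an oligonucleotide. That dose is from the sample labels, and the series text can be read as giving 60 mg/kg to all carrier groups. The group OTV:Malat1 (n = 3, 60 mg/kg) received an ASO on a TfR-binding carrier, directed at Malat1, a long non-coding RNA of the nucleus, and nonTV:Malat1 (n = 3, 60 mg/kg, titled RSV-ASO) the ASO on a carrier named as not TfR-binding. The group Malat1 ASO (n = 2, 2.5 mg/kg) received the oligonucleotide alone. In every group replicate 1 was female at 2.33 months of age, replicate 4 was male at 2.57 months and replicate 5 was male at 2.33 months, and Malat1 ASO is represented by replicates 1 and 5. These numbers coincide with the deposited batches 1, 3 and 4, so neither sex nor age can be told apart from batch. The labels give the region as Posterior where the deposited metadata give cortex, and the strain as a human TfR knock-in where the metadata give C57BL/6J. They do not say whether a library is 1 animal or a pool, so p-values measure only the spread between these libraries. No vehicle or undosed group was analysed here, so every difference is between dosed mice. Below, values of 3 libraries follow the order of replicates 1, 4 and 5, and values of Malat1 ASO the order 1 and 5.

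The 2 receptors are ligand-activated transcription factors that bind the same steroid hormones. Nr3c2, the mineralocorticoid receptor, has the higher affinity and is largely occupied at resting hormone levels, whereas Nr3c1, the glucocorticoid receptor, is occupied as hormone rises with stress or with the daily peak. Bound receptors enter the nucleus, where they bind glucocorticoid response elements near genes such as Fkbp5, whose product is a co-chaperone that lowers hormone binding by the receptor and so closes a short feedback loop.

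Libraries held 33235994 to 43972886 UMIs over 7546 to 13840 nuclei, with medians of 2205 to 3666 UMIs per nucleus. The lowest median and the most nuclei belonged to OTV:Malat1 replicate 5. Of 108788 distinct barcodes, 1495 (1.37%) occurred in more than 1 library, with 12 to 57 shared by any of the 55 pairs of libraries. Malat1, the targeted RNA, stood at 74472, 75402 and 83826 CPM (a gene's UMIs per 1e+06 UMIs summed over the nuclei of a library, or of a class within it) in ATV:BACE1, at 49460, 40041 and 50348 in OTV:Malat1, at 74885, 76089 and 83899 in nonTV:Malat1 and at 78737 and 81479 in Malat1 ASO. Only OTV:Malat1 lay below the other groups. Among the 10 deposited cell classes, neurons made up 69.1% of the nuclei, oligodendrocytes 13% and astrocytes 11.5%. The summed level of each class's own marker list was the highest of all lists in every class but pericytes and vascular smooth muscle. In nuclei named pericytes 5 endothelial markers summed to 10295 CPM against 5269 for 5 pericyte markers, and in nuclei named vascular smooth muscle 5 pericyte markers summed to 4191 against 995 for 4 smooth muscle markers. The class named Glia carried choroid plexus and ependymal genes (5 markers, 4263 CPM). In leptomeningeal nuclei the sum of the 5 leptomeningeal markers, 2559, was close to that of the 5 astrocyte markers, 2026.

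Promoter sequence is shown for 4 members because each window holds a motif read by corticosteroid receptors or by clock factors. Promoter windows from RefSeq on GRCm38.p6 (250 bases before to 50 after a transcript start) were found for 7 of the 9 members, 16 windows in all. Capitals mark a match, on either strand, to the receptor half-site AGAACA, to the full glucocorticoid response element or to the E-box CACGTG, a motif used by clock factors. The full element was searched as that half-site and, 3 bases on, its mirrored partner without the last base and with 1 free base, and a looser form left more bases free. A half-site within a full element was also counted as a half-site. The windows are Sgk1 at chr10:21993640-21993939 (+), Fkbp5 at chr17:28486100-28486399 (-), Per1 at chr11:69098699-69098998 (+) and Tsc22d3 at chrX:140600473-140600772 (-), each written 5′ to 3′ on the strand of its gene.
Sgk1: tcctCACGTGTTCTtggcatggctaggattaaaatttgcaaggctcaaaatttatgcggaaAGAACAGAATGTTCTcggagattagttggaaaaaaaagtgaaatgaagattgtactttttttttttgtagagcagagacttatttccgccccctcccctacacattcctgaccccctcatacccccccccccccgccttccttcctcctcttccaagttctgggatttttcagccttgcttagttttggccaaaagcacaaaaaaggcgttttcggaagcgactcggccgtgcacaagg
Fkbp5: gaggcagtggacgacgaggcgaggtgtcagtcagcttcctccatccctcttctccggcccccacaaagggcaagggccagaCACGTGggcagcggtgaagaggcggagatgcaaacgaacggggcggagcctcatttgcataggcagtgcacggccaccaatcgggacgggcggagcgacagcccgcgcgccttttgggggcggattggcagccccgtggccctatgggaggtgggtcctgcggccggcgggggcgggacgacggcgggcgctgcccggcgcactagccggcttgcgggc
Per1: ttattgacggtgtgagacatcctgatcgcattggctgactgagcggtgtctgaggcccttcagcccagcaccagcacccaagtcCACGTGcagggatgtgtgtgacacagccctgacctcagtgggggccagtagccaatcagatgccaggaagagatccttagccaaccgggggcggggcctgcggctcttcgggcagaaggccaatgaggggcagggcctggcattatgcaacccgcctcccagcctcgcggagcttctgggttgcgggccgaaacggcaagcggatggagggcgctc
Tsc22d3: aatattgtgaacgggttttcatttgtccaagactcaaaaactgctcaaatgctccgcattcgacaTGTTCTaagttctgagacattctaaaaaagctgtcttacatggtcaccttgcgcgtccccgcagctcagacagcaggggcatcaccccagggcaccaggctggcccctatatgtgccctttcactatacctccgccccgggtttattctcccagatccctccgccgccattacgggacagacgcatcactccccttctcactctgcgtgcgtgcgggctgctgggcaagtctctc
The full element occurred in 1 of the members' windows, that of Sgk1, where AGAACAGAATGTTC begins 189 bases before the start. The other strand holds a match shifted by 1 base, which reads GAACAGAATGTTCT on the printed strand. Of all 32851 mouse promoter windows of this length, 46 (0.140%) held the full element, and 0.475% the looser form, which Sgk1 also holds within the same run. The half-site was found in 4 members' windows (3 of Sgk1 and 1 of Tsc22d3) against 19.0% of all windows. The E-box was found in 3, of Fkbp5, Per1 and Sgk1, against 7.15% of all, and the cAMP response element TGACGTCA in 0 of 16 against 1.79%. In the printed Sgk1 window the E-box and a half-site overlap by 2 bases. A match is a description of the letters, and motifs outside these windows were not searched.

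The genes lie on GRCm38 at chr18:39410545-39519421 on the minus strand for Nr3c1, chr8:76899442-77245012 (+) for Nr3c2, chr17:28399094-28517527 (-) for Fkbp5 and chr10:21882184-21999903 (+) for Sgk1. Zbtb16 lies at chr9:48654297-48836222 (-), Tsc22d3 at chrX:140539528-140600659 (-), Per1 at chr11:69095217-69109960 (+), Ddit4 at chr10:59949669-59951834 (-) and Cdkn1a at chr17:29090976-29100727 (+). All 9 are annotated as protein-coding, and the counts are per gene, so exons and introns cannot be separated. Fkbp5 overlaps Gm22146 and Nr3c2 overlaps Gm10649 on the opposite strand, and reads of such partners may be shared if the counting was without strand, which is not given in the sources used here.

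Each member was described in every class, with the control group setting the reference levels in CPM (mean ± SD, n = 3). Because the classes were assigned from the same RNA, these levels are given without a test, and levels are compared between classes for 1 gene at a time, never between genes. Classes are ordered by mean, and a class is called clear where its control libraries do not overlap those of the class next to it in that order. In whole-library sums fewer nuclei of a class and less RNA per nucleus cannot be told apart.

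Nr3c1 had its highest control levels in microglia (231 ± 65.0), vascular endothelium (223 ± 43.1) and pericytes (212 ± 24.7), and its lowest in neurons (128 ± 8.21) and Glia (109 ± 23.2). Neighbouring classes in this order overlapped, except that all control libraries of oligodendrocytes (172 ± 21.2) lay above all those of neurons. Nr3c2 was distributed differently, with the highest level in leptomeningeal cells (597 ± 58.4) and the next in astrocytes (437 ± 55.5), each clear of the class that followed. Oligodendrocytes had the lowest Nr3c2 level (129 ± 18.0), and from Glia (288 ± 51.2) down to oligodendrocytes neighbours overlapped.

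Fkbp5, the feedback co-chaperone, was concentrated in leptomeningeal cells (201 ± 52.1) and microglia (111 ± 40.6), which overlapped each other, and microglia were clear of neurons (33.7 ± 2.41). Neurons were clear of astrocytes (20.5 ± 2.03), and from astrocytes down to pericytes (13.7 ± 4.53) neighbours overlapped. Tsc22d3, whose product GILZ is an anti-inflammatory transcriptional regulator, was distributed differently. Its mean was highest in oligodendrocytes (106 ± 12) and lowest in neurons (8.78 ± 2.44), and both ends stood clear of their neighbours, although 1 control library of vascular endothelium, at 123, lay above all control libraries of oligodendrocytes.

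Sgk1, a kinase that raises the activity of ion channels and transporters, was highest in Glia (166 ± 30.0) and next in neurons (132 ± 12.6), and lowest in astrocytes (22.5 ± 4.06), with these 3 classes clear of their neighbours in the order. Zbtb16, a zinc finger transcription factor, was highest in leptomeningeal cells (101 ± 36.9) and neurons (93.1 ± 4.08), and neurons were clear of oligodendrocytes (70.8 ± 8.62), after which the classes overlapped down to Glia (30.8 ± 0.999). Per1, a repressor within the circadian clock, had overlapping control levels in neighbouring classes along the order, from 53.1 ± 20.7 in leptomeningeal cells to 15.6 ± 6.66 in microglia.

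The 2 stress genes had their highest control levels in vascular endothelium. Cdkn1a, which encodes the cell cycle inhibitor p21, stood at 118 ± 32.4 in vascular endothelium and 78.9 ± 9.04 in pericytes, both clear of the next class, and at 2.59 ± 1.45 in neurons. Ddit4, whose product REDD1 restrains the growth kinase complex mTORC1, stood at 49.4 ± 16.3 in vascular endothelium and overlapped from there down to astrocytes (22.0 ± 7.44). Astrocytes were clear of Glia (6.93 ± 4.06), which overlapped neurons (5.25 ± 1.4) and through them microglia (3.0 ± 5.19).

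In the 2 smallest classes the counts of all 11 libraries were pooled, with exact Poisson 95% intervals that cover counting error only. These pooled values mix the dosing groups and are not control levels. Perivascular macrophages (125 nuclei) held 32 Fkbp5 UMIs, or 231 CPM (158 to 326), 30 Tsc22d3 UMIs (216, 146 to 309), 44 Nr3c1 UMIs (317, 231 to 426) and 36 Nr3c2 UMIs (260, 182 to 359). The Fkbp5 UMIs were 0, 0 and 0 in ATV:BACE1, 2, 3 and 1 in nonTV:Malat1, 8, 3 and 0 in OTV:Malat1 and 11 and 4 in Malat1 ASO. The libraries held 5 to 21 of these nuclei each, and 1 of the 11 reached the minimum of 20, so the groups were not compared. Vascular smooth muscle (330 nuclei) held 84 Nr3c2 UMIs (237, 189 to 293) and 58 Nr3c1 UMIs (163, 124 to 211), and the other members had 16 UMIs or fewer there.

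**Figure D1:**
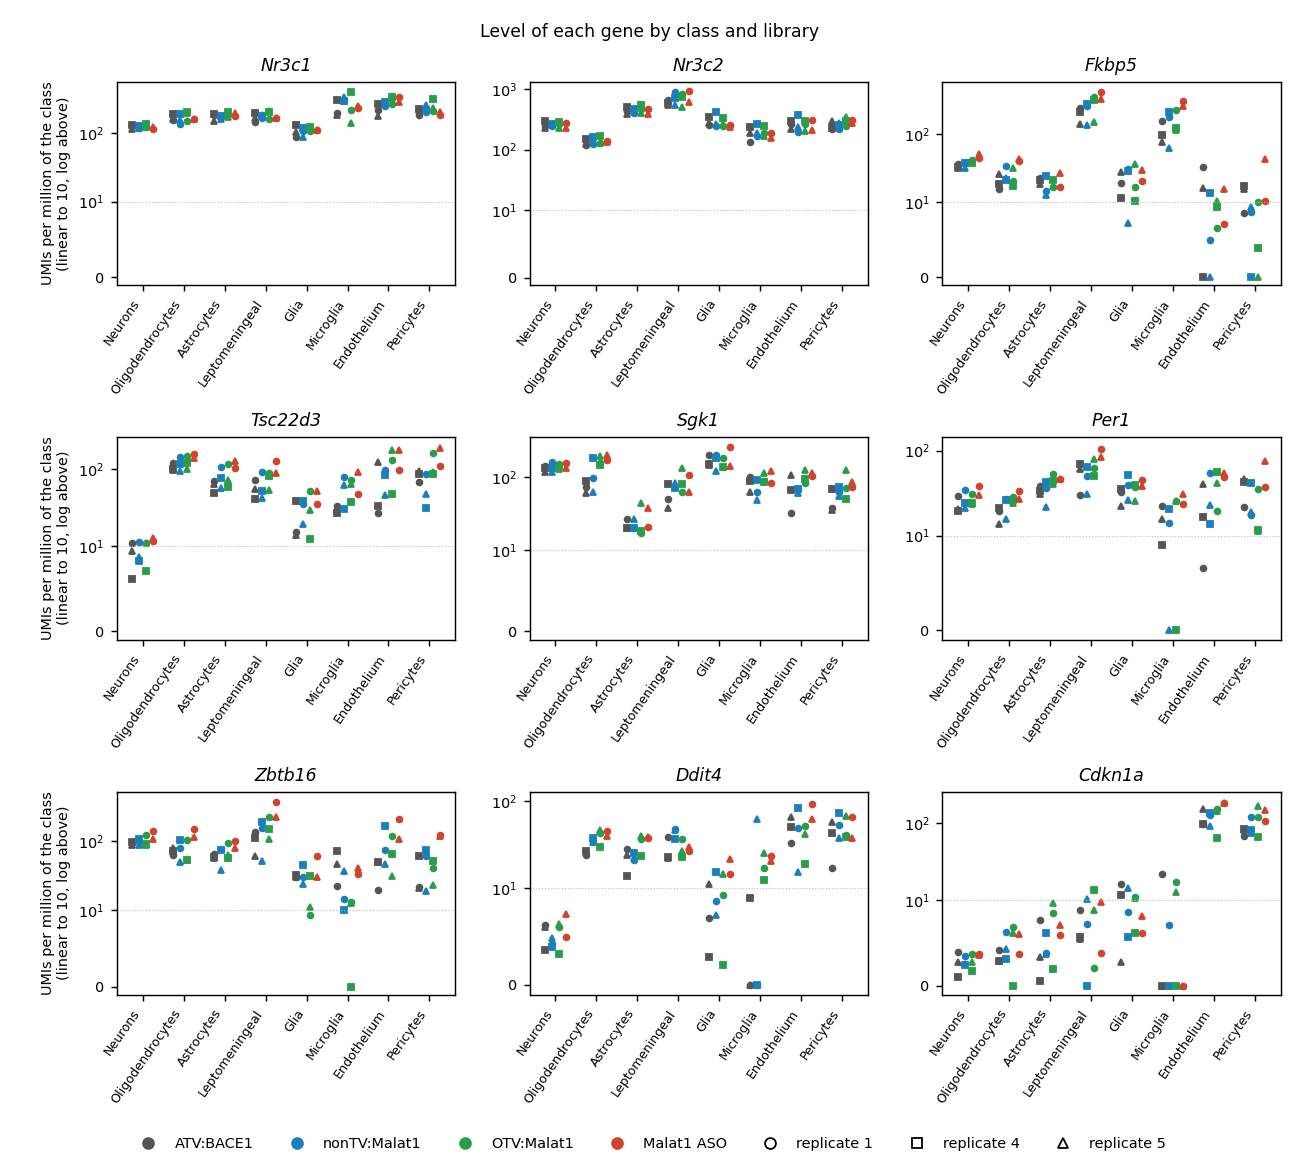
Level of each of the 9 genes in CPM (vertical axis, linear to 10 and logarithmic above) in 8 cell classes. Points are libraries, coloured by dosing group; by control mean Nr3c2 was highest in leptomeningeal cells and astrocytes, Tsc22d3 in oligodendrocytes and Cdkn1a in vascular endothelium and pericytes.

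The question of the free ASO comparison is how the members stood in each class in the group whose values chose them. In the sums over all nuclei, Fkbp5 stood at 36.2, 32.2 and 32.0 CPM in ATV:BACE1, at 37.4, 37.9 and 31.3 in nonTV:Malat1, at 42.5, 37.2 and 38.4 in OTV:Malat1 and at 46.5 and 52.4 in Malat1 ASO. Both Malat1 ASO libraries were above all 9 others, by a log2 difference of 0.59 (SE 0.0904) from ATV:BACE1. Per1 stood at 29.4, 20.7 and 21.1 in ATV:BACE1, at 34.0, 26.0 and 21.0 in nonTV:Malat1, at 32.7, 25.9 and 24.2 in OTV:Malat1 and at 39.0 and 31.3 in Malat1 ASO, a log2 difference of 0.55 (SE 0.0825) from ATV:BACE1. For Tsc22d3 the values were 20.3, 12.7 and 15.2, then 27.9, 17.6 and 14.2, then 26.5, 16.1 and 16.0, and 27.3 and 24.8 in the same order of groups, a log2 difference of 0.64 (SE 0.140). The 5 markers of oligodendrocytes, the class with the highest Tsc22d3 level, summed over all nuclei to 1027, 932 and 819 in ATV:BACE1. In Malat1 ASO they summed to 1107 and 1050, above all controls, while the other marker lists overlapped. The part of these markers in the Tsc22d3 value was not tested. For Per1 and Tsc22d3 both Malat1 ASO libraries were above all 3 control libraries, but replicate 1 of nonTV:Malat1 and of OTV:Malat1 reached their range, and replicate 1 was the highest library of each 3-library group.

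Zbtb16 stood at 90.6, 91.7 and 85.5 in ATV:BACE1 and at 139 and 104 in Malat1 ASO, a log2 difference of 0.47 (SE 0.123), with Malat1 ASO replicate 1 well above replicate 5. It stood at 92.4, 103 and 81.9 in nonTV:Malat1 and at 118, 86.7 and 84.3 in OTV:Malat1, whose replicate 1 lay above the lower Malat1 ASO library. Sgk1 (132, 128 and 112 against 148 and 134), Ddit4 (8.63, 5.31 and 7.89 against 10.3 and 10.5) and Cdkn1a (5.18, 1.70 and 3.89 against 5.41 and 5.23) were also above the 3 control libraries in both Malat1 ASO libraries. Their log2 differences were 0.22 (SE 0.0797), 0.42 (SE 0.140) and 0.41 (SE 0.181), and the gap of Cdkn1a to the nearest control library was small. The conjugates reached the Malat1 ASO range in each of these 3, with Sgk1 at 146 and 142 in replicate 1 of nonTV:Malat1 and OTV:Malat1, Cdkn1a at 5.49 and 5.34, and Ddit4 at 10.4 in OTV:Malat1 replicate 1. Both Malat1 ASO libraries were thus above all nonTV:Malat1 libraries in 3 of 9 members (Fkbp5, Zbtb16 and Ddit4) and above all OTV:Malat1 libraries in 1 of 9 (Fkbp5). The shares of all genes for these comparisons in all nuclei are not given, and the Malat1 ASO libraries entered the choice of members. The counts are therefore a description. The receptors did not separate from the controls: Nr3c1 stood at 135, 140 and 122 against 125 and 129, and Nr3c2 at 254, 298 and 235 against 280 and 231. For Nr3c1 both Malat1 ASO libraries were below all 3 of OTV:Malat1 (131, 147 and 131).

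These differences chose the members, so their number is no result: in all nuclei 7 of 9 members had both Malat1 ASO libraries above all control libraries, where 5.75% of all 21409 genes did. Summed over the classes that could be fitted, 27 of 59 member values did so, where 7.48% of all genes did, and the median log2 difference was 0.53 over the 59 values and -0.00 over all genes. Against nonTV:Malat1 23 of 60 values had both Malat1 ASO libraries above all 3 (7.37% of all genes), and against OTV:Malat1 11 of 60 did (5.28%). Neither conjugate entered the choice, but the same 2 Malat1 ASO libraries did, which favours such counts. These counts are a description too, and nothing is read from them.

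**Figure D2:**
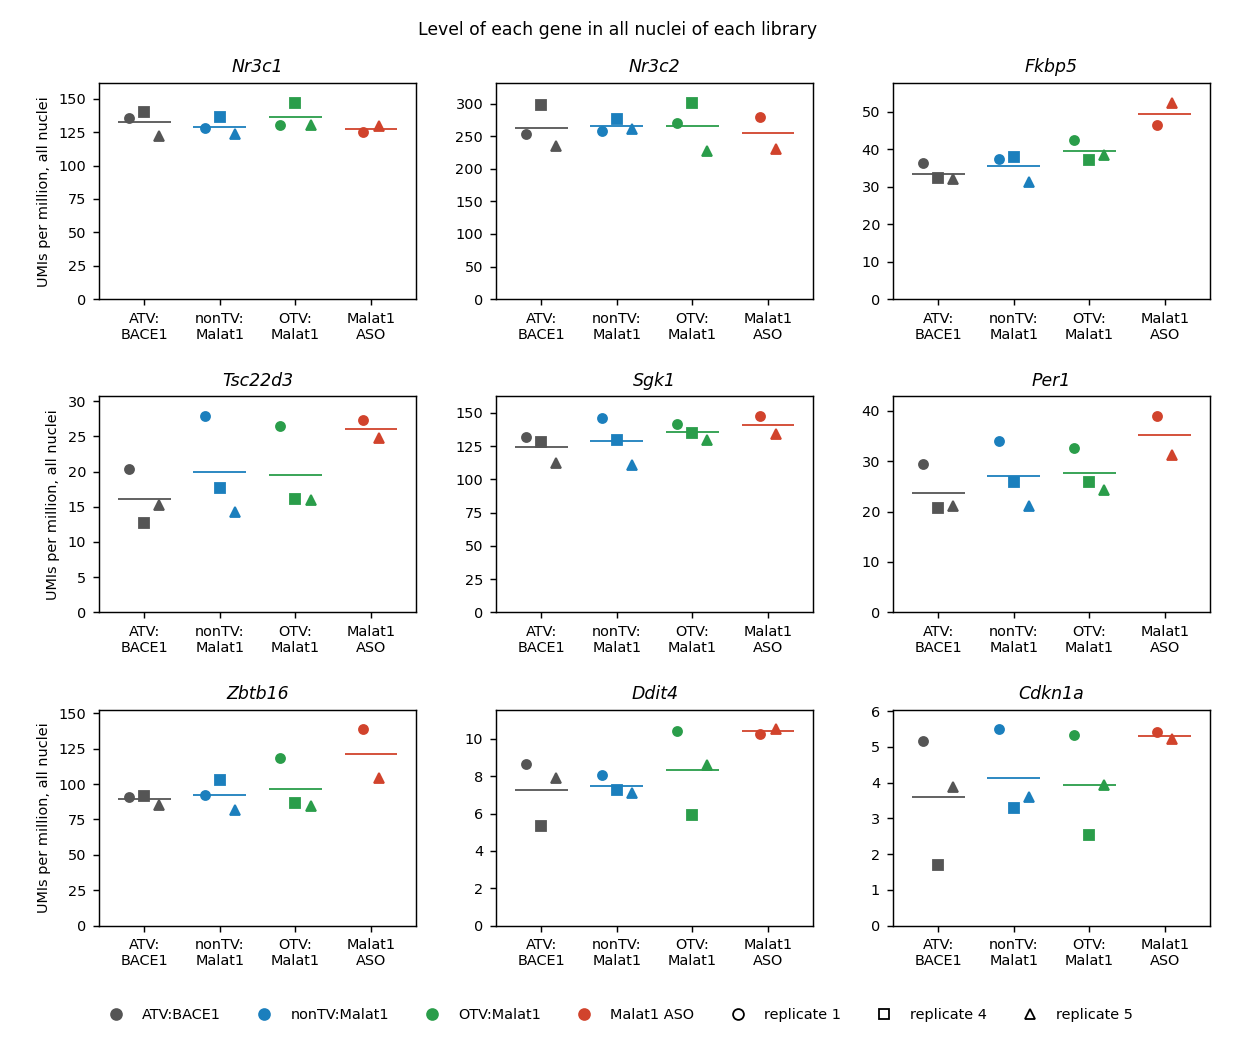
Level of each of the 9 genes over all nuclei of a library, in CPM (vertical axis, from 0), by dosing group; points are libraries and lines group means. For Fkbp5 the Malat1 ASO libraries, at 46.5 and 52.4, lie above the 9 other libraries, and for Nr3c1 and Nr3c2 the groups overlap.

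By class, the widest gaps between Malat1 ASO and the control group were those of Zbtb16 in vascular and leptomeningeal nuclei. In pericytes Zbtb16 stood at 21.4, 59.8 and 20.7 CPM in ATV:BACE1 (5, 7 and 4 UMIs) and at 123 and 118 in Malat1 ASO (36 and 22 UMIs), a log2 difference of 2.23 (SE 0.411, 4.71-fold). In vascular endothelium it stood at 19.8, 49.9 and 49.1 (3, 3 and 6 UMIs) against 211 and 108 (30 and 14 UMIs), a difference of 2.21 (SE 0.495). In leptomeningeal cells the values were 133, 109 and 60.8 against 368 and 221, a difference of 1.65 (SE 0.260). In all 3 classes both Malat1 ASO libraries lay above the control libraries, although the control counts of the vascular classes were few.

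The nonTV:Malat1 and OTV:Malat1 libraries spread widely for the same gene. In vascular endothelium Zbtb16 stood at 73.4, 165 and 45.8 in nonTV:Malat1 and at 117, 65.7 and 31.6 in OTV:Malat1, so these groups overlapped both the control and the Malat1 ASO libraries. In pericytes they stood at 61.2, 72.9 and 18.7 and at 40.5, 50.8 and 22.7, below both Malat1 ASO libraries. In leptomeningeal cells they stood at 155, 185 and 51.7 and at 219, 150 and 107, with OTV:Malat1 replicate 1 just short of the lower Malat1 ASO value.

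Markers of other classes were read beside these gaps. In vascular endothelium the 5 endothelial markers summed to 11102 to 13814 CPM in ATV:BACE1 and 12034 to 14574 in Malat1 ASO, the 5 pericyte markers to 1021 to 1301 and 1146 to 1572, and the 5 leptomeningeal markers to 32.7 to 46.1 and 15.4 to 28.1. The 4 smooth muscle markers summed there to 0, 16.6 and 16.4 in ATV:BACE1 and to 21.1 and 23.1 in Malat1 ASO, above all controls. In that class 1 UMI was 16.6 CPM in ATV:BACE1 replicate 4 and 7.03 in Malat1 ASO replicate 1, so these sums rest on few UMIs. The 5 astrocyte markers were lower in Malat1 ASO there (239 to 330) than in ATV:BACE1 (483 to 784). In pericytes the 5 oligodendrocyte markers summed to 486 to 737 in ATV:BACE1 and 705 to 891 in Malat1 ASO. None of the markers in these lists was at 0 over the pooled libraries. In leptomeningeal cells the 5 endothelial markers summed to 241 to 304 in ATV:BACE1 and to 318 to 368 in Malat1 ASO, above all controls, and the 5 pericyte markers to 344 to 404 and 250.1 to 268, below all controls. The 5 leptomeningeal markers summed there to 2174 to 2956 and 2212 to 2508, and the 5 astrocyte markers to 1963 to 2334 and 1764 to 1971. The part of these marker differences in the values of Zbtb16, and of Fkbp5 in leptomeningeal cells, was not tested.

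Fkbp5 differed by class as well. In microglia it stood at 156, 98.9 and 77.7 CPM in ATV:BACE1 (14, 11 and 5 UMIs) and at 310 and 267 in Malat1 ASO (66 and 26 UMIs), a log2 difference of 1.37 (SE 0.36), with 178, 213 and 62.1 in nonTV:Malat1 and 227, 124 and 115 in OTV:Malat1, all below both Malat1 ASO libraries. In leptomeningeal cells it stood at 246, 212 and 144 against 426 and 333, a difference of 1.04 (SE 0.219). There nonTV:Malat1 stood at 258, 282 and 139.7 and OTV:Malat1 at 352, 322 and 152, so OTV:Malat1 replicate 1 lay above the lower Malat1 ASO library. In oligodendrocytes the values were 15.8, 18.3 and 26.2 against 40.5 and 43.0, a difference of 1.03 (SE 0.243), with 34.1, 21.2 and 22.7 in nonTV:Malat1 and 20.3, 17.2 and 32.0 in OTV:Malat1. Malat1 ASO and ATV:BACE1 did not overlap in any of these, nor in neurons, where the difference was 0.55 (SE 0.0884). In the microglia class the 5 microglial markers summed to 4416 to 5176 CPM in ATV:BACE1 and 4226 to 5341 in Malat1 ASO. The 4 markers of perivascular macrophages, of which 1 was at 0, summed there to 11.2 to 202 and 61.1 to 256.5. The 6 neuronal markers, at 962 to 1197 in ATV:BACE1 and 705 to 944 in Malat1 ASO, were below all controls, and the 5 pericyte markers, at 22.3 to 44.9 and 51.3 to 65.8, above them. The pericyte sums rest on few UMIs, as 2 UMIs were 22.3 CPM in ATV:BACE1 replicate 1 of this class. The part of these markers in the Fkbp5 value was not tested.

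Astrocytes were an exception for Fkbp5, with 22.4, 20.8 and 18.4 in ATV:BACE1 and 16.4 and 27.0 in Malat1 ASO, values that lie to both sides of the controls. In Glia Fkbp5 stood at 19.2, 11.6 and 27.5 in ATV:BACE1 and at 20.6 and 29.9 in Malat1 ASO, so the groups overlapped. The log2 difference there was 0.24 (SE 0.528). The 4 classes with separate groups were thus oligodendrocytes, leptomeningeal cells, microglia and neurons, of 6 in which Fkbp5 passed the count filter together with Glia and astrocytes. Malat1 ASO was above all nonTV:Malat1 libraries in 4 of the 6 classes and above all OTV:Malat1 libraries in 3. Over the classes together 7.37% and 5.28% of all genes were. The Malat1 ASO libraries entered the choice of members, so these counts are a description.

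Sgk1 had its widest free ASO gap in oligodendrocytes, at 73.6, 90.0 and 61.1 in ATV:BACE1 against 173 and 201 in Malat1 ASO, a log2 difference of 1.49 (SE 0.206, 2.81-fold), and replicate 4 of nonTV:Malat1 (182) and replicate 5 of OTV:Malat1 (199) lay within the Malat1 ASO range. In neurons, the most numerous class, the difference was 0.18 (SE 0.0791). Tsc22d3 was above the controls in both Malat1 ASO libraries in neurons, oligodendrocytes, astrocytes, leptomeningeal cells and pericytes, with log2 differences of 0.36 to 0.88, and overlapped them in Glia and vascular endothelium. Per1 did so in each of the 5 classes in which it was fitted. In neurons the 5 oligodendrocyte markers summed to 458 to 486 in ATV:BACE1 and to 488 and 566 in Malat1 ASO, above all controls. The 5 astrocyte markers (436 to 465 against 391 and 397) and the 5 leptomeningeal markers (15.9 to 17.4 against 12.1 and 15.0) were below all controls there. The other marker lists overlapped in neurons, and the part of such RNA in the members' values was not tested. Against nonTV:Malat1 the Malat1 ASO libraries were above all 3 in 3 of 7 classes for Tsc22d3, 3 of 5 for Per1 and 2 of 8 for Sgk1, and against OTV:Malat1 in 2, 1 and 0. The shares of all genes over the classes together were 7.37% and 5.28%. As for Fkbp5, these counts are a description, since the Malat1 ASO libraries entered the choice.

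Over the classes 55 of 59 member values lay above 0, where 49.8% of all genes did. Zbtb16, Tsc22d3 and Sgk1 were above the control estimate wherever fitted (7 of 7, 7 of 7 and 8 of 8 classes), and Ddit4 in 5 of 6. Nr3c1 was above it in 6 of 8 classes but separated only in vascular endothelium, at 224, 266 and 180 against 344.5 and 293, with 249, 289 and 283 in nonTV:Malat1 and 274, 338 and 337 in OTV:Malat1. Nr3c2 was above it in 7 of 8 and separated in 0.

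**Figure D3:**
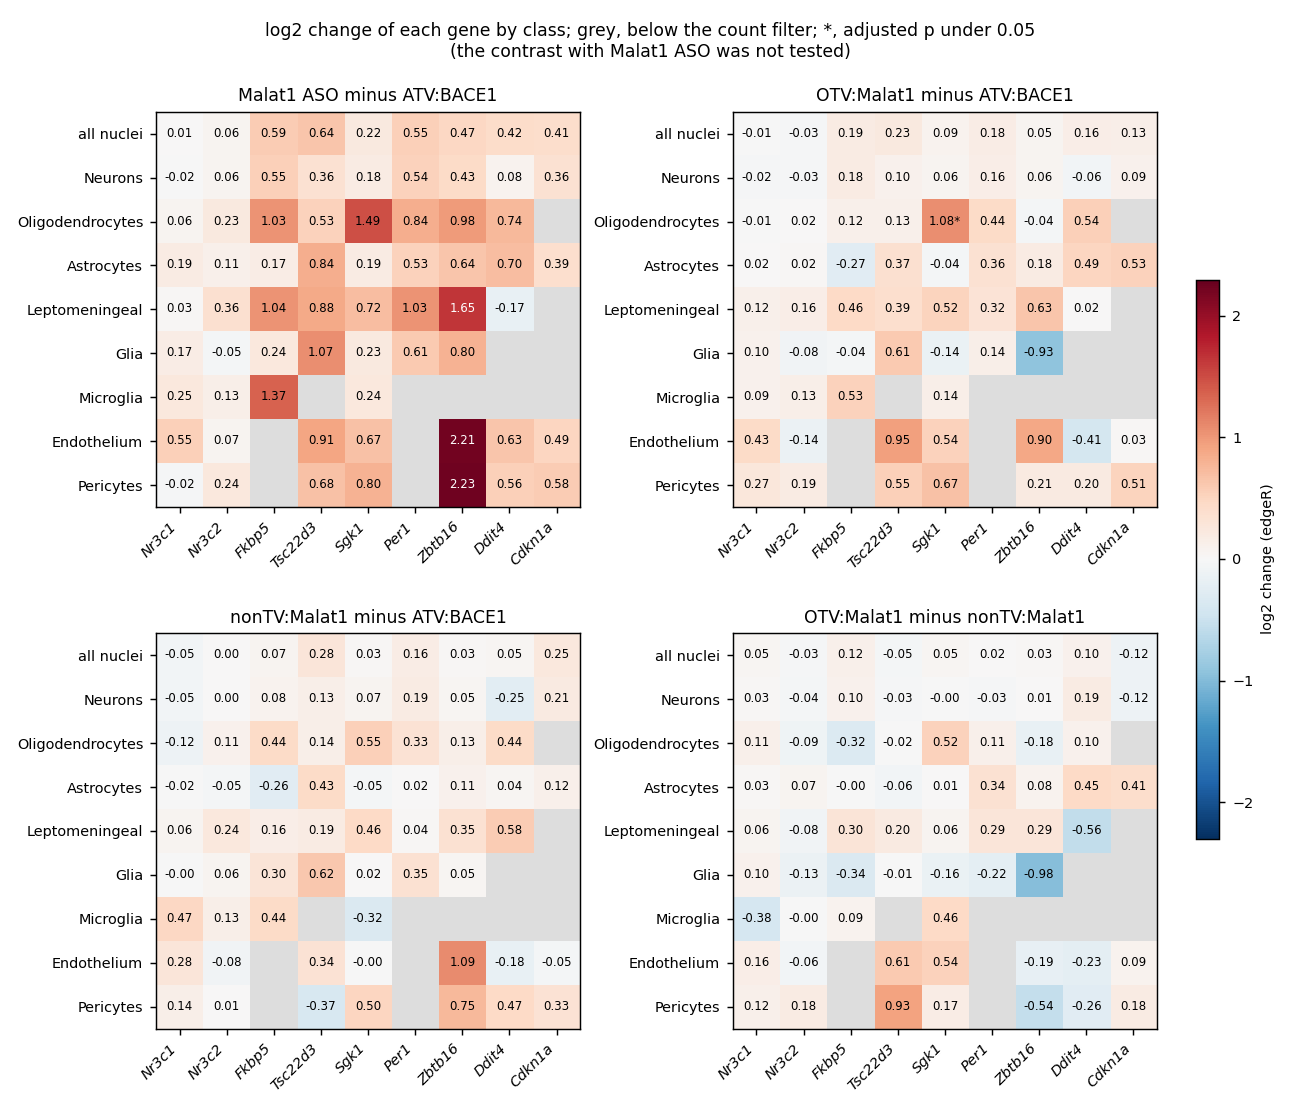
Log2 differences of the 9 genes (columns) in all nuclei and the fitted classes except vascular smooth muscle (rows) for 4 dosing comparisons. Colour gives size and direction, grey marks genes under the count filter and an asterisk an adjusted p under 0.05 in edgeR. The Malat1 ASO panel is untested, and the asterisk stands at Sgk1 in oligodendrocytes for OTV:Malat1 minus ATV:BACE1. That comparison reuses the control libraries on which the members were chosen.

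Within neurons the free ASO differences were read in the 7 of the authors' clusters that had at least 20 neurons in every library (75577 of 76211 neurons), as Malat1 ASO against ATV:BACE1 of the same replicate number. This contrast chose the members, and the shares of all genes are not given for the clusters. The cluster counts are therefore a description from which nothing is read. Zbtb16 was higher in 7 of 7 clusters for replicate 1 and 7 of 7 for replicate 5, and above all control libraries in 5. In cluster 6 Zbtb16 stood at 188, 165 and 150 in ATV:BACE1 and at 457 and 238 in Malat1 ASO. Cluster 6 held 674 nuclei of the neuron class (0.884%), and its control levels of Fkbp5 (189 ± 107), Nr3c2 (678 ± 189) and Tsc22d3 (81.4 ± 10.95) were nearer to those of leptomeningeal cells (201, 597 and 55.5) than to those of neurons as a whole (33.7, 256 and 8.78). Nr3c1 went the other way, at 133 against 173 and 128, and Tsc22d3 was nearer still to pericytes (82.3). No marker list was read for cluster 6, so its nuclei are given no other name. Per1 was higher in 7 and 6 of the 7 clusters for the 2 replicate numbers.

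For Fkbp5 the 2 numbers differed, with 3 of 7 clusters higher for replicate 1 and 7 of 7 for replicate 5. In cluster 0, which holds the largest share of neurons, Fkbp5 was separate at 27.8, 26.1 and 24.8 against 41.0 and 47.5. Tsc22d3 (4 and 7 clusters), Ddit4 (3 and 6) and Nr3c1 (2 and 7) also went more often up for replicate 5, as did Sgk1 (4 and 6) and Cdkn1a (4 and 6), whereas Nr3c2 did so for replicate 1 (5 and 2), a difference between the pairs that was not tested. Neither receptor was above all control libraries in any of the 7 clusters. Some cluster values rest on few UMIs over all libraries, with 5 for Cdkn1a and 10 for Ddit4 in cluster 7 and 13 for Cdkn1a in cluster 9.

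The comparison of OTV:Malat1 with nonTV:Malat1 asks what TfR binding adds at an equal dose of 60 mg/kg, and neither group entered the choice of members. No member passed edgeR's quasi-likelihood test with Benjamini-Hochberg adjustment, in all nuclei (0 of 9, 0.0% of all genes called) or over the classes (0 of 60, 0.0239% of all genes called), and DESeq2 called 0 of 60. Malat1 itself was not called in all nuclei, although it stood at 49460, 40041 and 50348 CPM in OTV:Malat1 against 74885, 76089 and 83899 in nonTV:Malat1. A lack of calls in all nuclei therefore does not show that a gene was unchanged. At an unadjusted p under 0.05 there were 0 of 9 members in all nuclei, where 3.97% of all genes were, and 5 of 60 over the classes, where 3.78% were. In all nuclei Fkbp5, at 37.4, 37.9 and 31.3 in nonTV:Malat1 and 42.5, 37.2 and 38.4 in OTV:Malat1, differed by 0.12 (SE 0.0793) and the groups overlapped. The receptors differed by 0.05 (SE 0.0542, Nr3c1) and -0.03 (SE 0.0822, Nr3c2).

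The 5 class values under 0.05 before adjustment were Sgk1 in oligodendrocytes (log2 0.52, SE 0.178), Tsc22d3 in pericytes (0.93, SE 0.340), Zbtb16 in Glia (-0.98, SE 0.380), Ddit4 in astrocytes (0.45, SE 0.197) and Per1 in astrocytes (0.34, SE 0.165). Their adjusted p-values in edgeR ran from 0.776 to 1.00, so none is a call. All 3 OTV:Malat1 libraries lay above all 3 nonTV:Malat1 libraries in 2 of 60 values, Fkbp5 in neurons and Sgk1 in vascular endothelium, where 4.61% of all genes did, near the members' share. Zbtb16 in Glia, at 9.31, 31.0 and 10.9 in OTV:Malat1 against 30.4, 44.2 and 24.1, overlapped through replicate 4.

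The comparisons with ATV:BACE1 reuse the control libraries on which the members were chosen, and a choice of genes that were low in those libraries also favours higher values in OTV:Malat1 and nonTV:Malat1. Their p-values are therefore not independent of the choice, and they and the shares of all genes are printed as a description from which nothing is read. In oligodendrocytes Sgk1 stood at 73.6, 90.0 and 61.1 CPM in ATV:BACE1 (140, 123 and 63 UMIs), at 160, 146 and 199 in OTV:Malat1 (345, 195 and 224 UMIs) and at 97.8, 182 and 62.9 in nonTV:Malat1. All OTV:Malat1 libraries were above all control libraries, and nonTV:Malat1 spanned both groups through its replicate 4. The log2 difference between OTV:Malat1 and ATV:BACE1 was 1.08 (SE 0.186, 2.11-fold) with an adjusted p of 0.0096 in edgeR, and it was 1.12, 0.70 and 1.70 within replicates 1, 4 and 5. Of all genes in oligodendrocytes 0.0162% were called in this comparison.

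The Sgk1 call ended in 5 of 19 alternatives, while its log2 difference stayed between 0.83 and 1.44 in all 19. Without the replicate block the adjusted p was 1.00, and with DESeq2 it was 1.00. It was 0.203 without ATV:BACE1 replicate 1, 0.262 without ATV:BACE1 replicate 4 and 0.0896 without OTV:Malat1 replicate 1 in edgeR. Between the conjugates Sgk1 differed by 0.71, -0.32 and 1.66 within replicates 1, 4 and 5, and the fitted difference of 0.52 moved with single libraries in both directions. It was 0.22 without nonTV:Malat1 replicate 5 and 0.28 without OTV:Malat1 replicate 5 (adjusted p of 0.999 and 1.00 in edgeR), and 0.93 without nonTV:Malat1 replicate 4 and 0.91 without OTV:Malat1 replicate 4 (adjusted p of 0.0643 and 0.00931).

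Other RNA in the oligodendrocyte nuclei was read beside Sgk1. Their 5 oligodendrocyte markers summed to 10485 to 11591 CPM in ATV:BACE1 and 11401 to 12857 in OTV:Malat1. The 6 neuronal markers, of the class with the second highest Sgk1 level, summed to 882 to 886 in ATV:BACE1, 741 to 809 in nonTV:Malat1, 827 to 1266 in OTV:Malat1 and 693 to 941 in Malat1 ASO. The 5 choroid plexus and ependymal markers, of the class with the highest Sgk1 level, summed to 979 to 2305 in ATV:BACE1 and 1088 to 1342 in OTV:Malat1, so these ranges overlapped. The part of such RNA in the Sgk1 difference was not tested. With called doublets left out the log2 difference was 1.16 with an adjusted p of 0.00835 in edgeR.

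**Figure D4:**
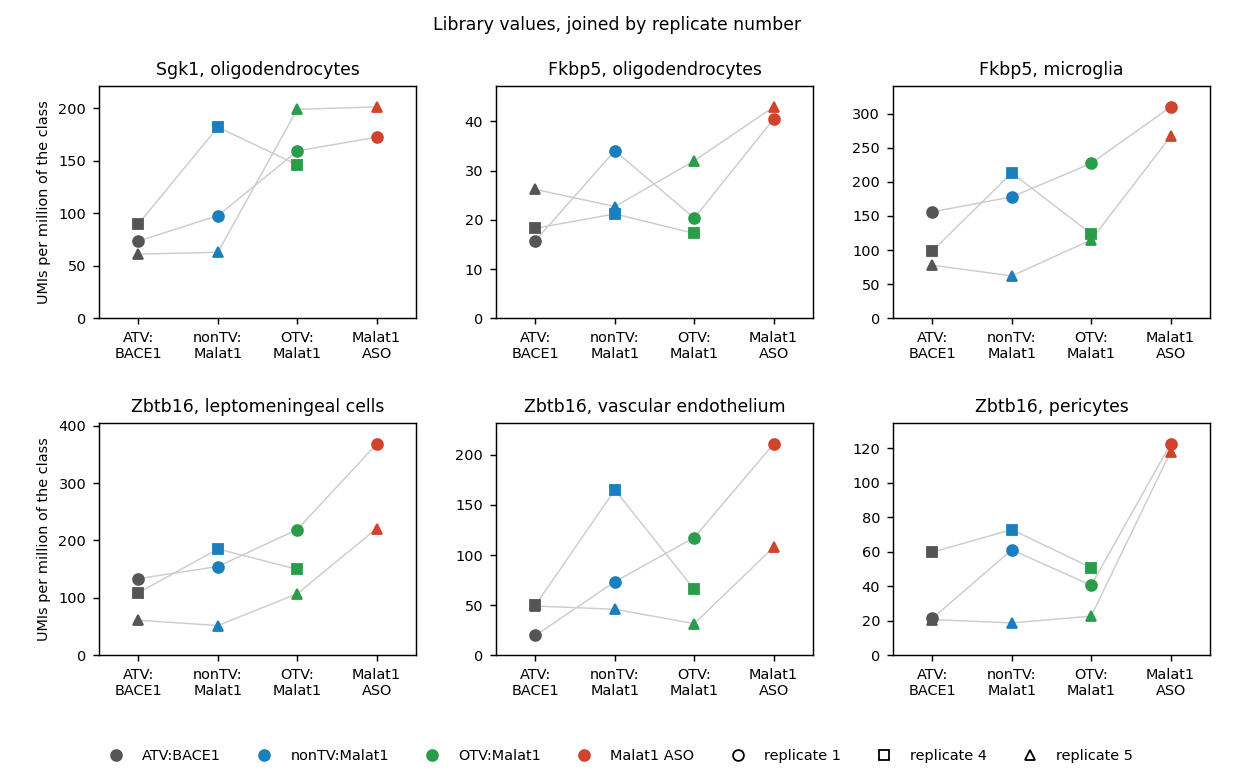
Library values in CPM (vertical axis, from 0) for Sgk1 in oligodendrocytes, Fkbp5 in oligodendrocytes and microglia, and Zbtb16 in leptomeningeal cells, vascular endothelium and pericytes; lines join libraries with the same replicate number across the 4 groups. Sgk1 is higher in OTV:Malat1 than in ATV:BACE1 along each line, and nonTV:Malat1 replicate 4 stands at 182.

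The remaining members were not called in OTV:Malat1 against ATV:BACE1: edgeR called 0 of 9 in all nuclei (0.0% of all genes) and 1 of 59 over the classes (0.0128% of all genes), and DESeq2 called 0 of 59. Malat1 was not called by edgeR in all nuclei in this comparison either. At an unadjusted p under 0.05 there were 2 of 9 members in all nuclei (3.77% of all genes) and 11 of 59 over the classes (4.49% of all genes). The 2 in all nuclei were Fkbp5 (log2 0.19, SE 0.0794) and Per1 (0.18, SE 0.0728). All 3 OTV:Malat1 libraries lay above the controls in 6 of 59 values, where 4.83% of all genes did: Sgk1, Per1 and Ddit4 in oligodendrocytes, Per1 in astrocytes, Fkbp5 in neurons and Nr3c1 in vascular endothelium. Ddit4 in oligodendrocytes stood at 24.2, 26.3 and 26.2 against 42.5, 30.0 and 46.2, a log2 difference of 0.54 (SE 0.195) that did not pass the adjustment. In leptomeningeal cells Zbtb16 differed by 0.63 (SE 0.248) and Fkbp5 by 0.46 (SE 0.199), with overlapping groups and adjusted p-values of 0.996 in edgeR.

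In nonTV:Malat1 against the same controls edgeR called 0 of 9 members in all nuclei (0.0% of all genes) and 0 of 59 over the classes (0.0257% of all genes), and DESeq2 called 0 of 59. At an unadjusted p under 0.05 there were 2 of 9 members in all nuclei (5.28% of all genes) and 5 of 59 over the classes (4.44% of all genes). Tsc22d3 over all nuclei stood at 27.9, 17.6 and 14.2 against 20.3, 12.7 and 15.2, a log2 difference of 0.28 (SE 0.124), higher for replicates 1 and 4 and lower for replicate 5. Zbtb16 in vascular endothelium differed by 1.09 (SE 0.512) and was likewise lower for replicate 5. Ddit4 in oligodendrocytes (33.4, 37.7 and 34.1 against 24.2, 26.3 and 26.2) was the 1 value of 59 without overlap, where 3.13% of all genes lay above the controls.

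Replicate 1 was compared with the mean of replicates 4 and 5 within the dosing groups, a contrast in which sex cannot be told apart from batch and the mean age differs too. In all nuclei 4 of 9 members rose in replicate 1 and 0 fell, where 18.2% of all genes were called higher, 18.5% lower and 36.8% in either direction. Per1 stood at 29.4, 34.0, 32.7 and 39.0 in the replicate 1 libraries of ATV:BACE1, nonTV:Malat1, OTV:Malat1 and Malat1 ASO, at 20.7, 26.0 and 25.9 in those of replicate 4, and at 21.1, 21.0, 24.2 and 31.3 in those of replicate 5. Its log2 difference was 0.41 (SE 0.0555, adjusted p 0.000215 in edgeR), and within each dosing group replicate 1 was the highest.

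The others were Tsc22d3 (0.57, SE 0.0931, adjusted p 0.00072), Cdkn1a (0.69, SE 0.123, adjusted p 0.00116) and Ddit4 (0.31, SE 0.0954, adjusted p 0.0243), all in edgeR. Within each dosing group the oligodendrocyte and leptomeningeal marker sums over all nuclei were also highest in replicate 1. The neuronal, microglial and perivascular macrophage sums were lowest there. The 5 oligodendrocyte markers stood at 1027, 1045, 1171 and 1107 in replicate 1, in the order of groups used for Per1. The part of these markers in the members' values was not tested. In neurons 5 of 9 members rose, namely Sgk1, Zbtb16, Per1, Tsc22d3 and Cdkn1a, and 0 fell, where 35.9% of all genes were called, 17.8% higher and 18.1% lower. Over the classes 11 of 60 values were called (14.4% of all genes), 10 higher (6.47% of all genes) and 1 lower (7.94%), and the lower one was Nr3c1 in oligodendrocytes (-0.28, SE 0.0890). With DESeq2 5 of 60 were called, and the calls over all genes and classes were 7456 in place of 11448. Leaving out single libraries gave 4 to 11 calls, with 4 without nonTV:Malat1 replicate 1, 4 without OTV:Malat1 replicate 1, 7 without OTV:Malat1 replicate 4 and 7 without nonTV:Malat1 replicate 5. The calls over all genes were 6373, 9024, 10196 and 9571 in the same order.

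Replicate 5 against replicate 4, both male, gave 4 of 9 members in all nuclei, where 18.2% of all genes were called. The 2 receptors and Sgk1 fell (8.49% of all genes did) and Cdkn1a rose (9.69%). Nr3c2 stood at 298, 277 and 301 in the replicate 4 libraries of ATV:BACE1, nonTV:Malat1 and OTV:Malat1 and at 235, 261, 226 and 231 in the replicate 5 libraries of the 4 groups, a log2 difference of -0.40 (SE 0.0791, adjusted p 0.00865 in edgeR). The 2 sets of libraries did not overlap. Over all nuclei the 5 astrocyte markers summed to 887 to 990 in replicate 4 and 605 to 724 in replicate 5. The 5 leptomeningeal markers summed to 38.4 to 45.2 and 30.9 to 35.7, and the 5 microglial markers rose, from 150 to 160 to 163 to 182. Leptomeningeal cells and astrocytes have the highest Nr3c2 levels, and the part of these markers in the Nr3c2 value was not tested. Nr3c2 also fell in oligodendrocytes (-0.42, SE 0.117) and astrocytes (-0.48, SE 0.107), and Nr3c1 in all nuclei (-0.25, SE 0.0525, adjusted p 0.0102 in edgeR). In oligodendrocytes their own 5 markers summed to 11591 to 12428 in replicate 4 and 10485 to 11401 in replicate 5, and the 5 microglial markers to 144 to 180 and 229 to 281. In astrocytes their own 5 markers summed to 8458 to 9246 and 6798 to 7168. The part of these marker differences in the receptor values was not tested.

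In neurons 6 of 9 members were called in that contrast (20.9% of all genes). Nr3c1, Nr3c2, Sgk1 and Zbtb16 fell (10.1% of all genes did), and Tsc22d3 and Ddit4 rose (10.7%). Over the classes 8 of 60 were called (7.65% of all genes), 2 higher (3.67%) and 6 lower (3.98%). The count was 0 without ATV:BACE1 replicate 4, 5 without any of Malat1 ASO replicate 1, OTV:Malat1 replicate 4, OTV:Malat1 replicate 5 or Malat1 ASO replicate 5, and 5 with total counts in place of TMM scaling. Over all genes and classes the calls were 6079, and they were 792 without ATV:BACE1 replicate 4, 2643 to 4013 without any 1 of the other 4 libraries and 6491 with total counts.

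**Figure D5:**
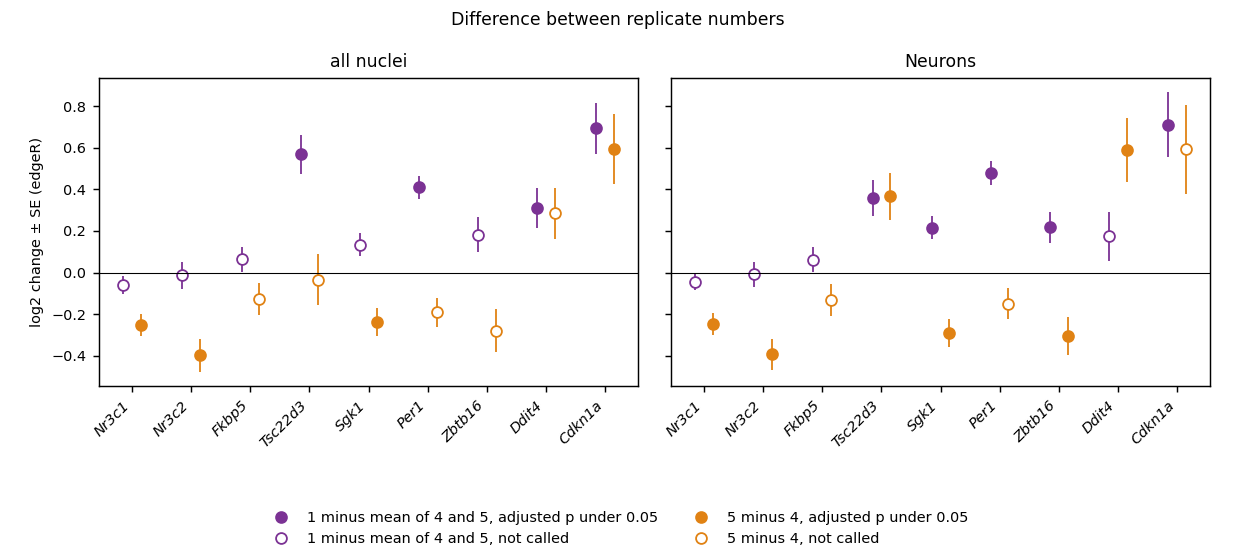
Log2 difference with its SE (vertical axis) of each gene between replicate numbers, in all nuclei and in neurons, with filled points where the adjusted p was under 0.05. Per1, Tsc22d3 and Cdkn1a are higher in replicate 1, and Nr3c1 and Nr3c2 are lower in replicate 5 than in replicate 4.

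Other genes of the pathway were read from 7 lists, whose members were listed with earlier results of these data known. In edgeR 0 genes of these lists were called in any of the 3 tested dosing comparisons, in all nuclei or in a class. At an unadjusted p under 0.05 in all nuclei, the list of other glucocorticoid-responsive genes had 5 of 25 for OTV:Malat1 against nonTV:Malat1, 5 for OTV:Malat1 against ATV:BACE1 and 6 for nonTV:Malat1 against ATV:BACE1, the activity-induced list had 0, 7 and 6 of 15, and no other list had more than 2. Of all genes 3.97%, 3.77% and 5.28% were under that p in the 3 comparisons. Over the classes the glucocorticoid-responsive list had 11 of 110, 10 of 107 and 11 of 107 values in the same order, where 3.78%, 4.49% and 4.44% of all genes were. Each other list had 0 to 16 values, so the count of some list was above that of the glucocorticoid-responsive list. The lists differ in size, so this range cannot be set beside the shares of all genes. With DESeq2 1 listed gene was called, Homer1 against ATV:BACE1, for OTV:Malat1 in all nuclei (log2 0.40) and in neurons (0.43) and for nonTV:Malat1 in neurons (0.36).

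Among 26 other glucocorticoid-responsive genes, 25 were measured over all nuclei. In Malat1 ASO 21 of 25 were above ATV:BACE1 with a median log2 difference of 0.26, where the median of all genes was 0.00. This contrast is the one that chose the 9 members, so it is given as a description. Arrdc2, an arrestin-domain gene, stood at 4.26, 3.12 and 2.83 CPM in ATV:BACE1 and at 5.43 and 5.13 in Malat1 ASO, a difference of 0.63 (SE 0.144) with both libraries above the controls. It stood at 5.39, 4.12 and 4.13 in nonTV:Malat1, whose replicate 1 lay within the Malat1 ASO range, and at 4.48, 4.41 and 4.35 in OTV:Malat1. Nfkbia, the inhibitor of NF-kappaB, differed by 0.48 (SE 0.206).

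The same 25 genes had a median of -0.08 between OTV:Malat1 and nonTV:Malat1, with 5 above 0, a median of 0.08 in OTV:Malat1 against ATV:BACE1 and of 0.16 in nonTV:Malat1 against ATV:BACE1, comparisons that share libraries. The largest absolute differences between the conjugates were those of Angptl4 (-0.82, SE 0.260) and Hif3a (-0.52, SE 0.218), neither called. In replicate 1 15 of 25 were called higher and 2 lower, against 18.2% and 18.5% of all genes. There Pdk4, a regulator of glucose oxidation, rose by 0.66 (SE 0.185) and Plin4 fell by 0.63 (SE 0.174).

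Receptor chaperones and coregulators (18 genes) had a median log2 difference of 0.07 in Malat1 ASO against ATV:BACE1, and steroid metabolism and other steroid receptors (10 genes) one of -0.06. In replicate 1 13 of the 18 chaperones and coregulators were called higher (18.2% of all genes were), among them the chaperone Hspa8 (0.43, SE 0.116), and 3 of the 10 steroid genes lower (18.5% of all genes), among them Hsd11b2, which inactivates corticosterone (-1.10, SE 0.239). Clock genes other than Per1 (15) had a median of 0.07 in Malat1 ASO, with Per2 at 0.29 (SE 0.116) and Cry1 at 0.25 (SE 0.105). In replicate 1 5 of the 15 rose (18.2% of all genes did), Per2 by 0.62 (SE 0.0768).

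Lists around the stress genes gave medians near 0 in Malat1 ASO against ATV:BACE1, 0.05 for 12 targets of p53 beside Cdkn1a and -0.10 for 10 genes of the integrated stress response beside Ddit4. Activity-induced genes, which follow neuronal firing and handling, were read beside the members. Of 15 such genes 8 were above 0 in Malat1 ASO (median 0.07), with Nr4a3 at 1.22 (SE 0.20) and Homer1 at 0.70 (SE 0.0840). Homer1 stood at 292, 212 and 196 CPM in ATV:BACE1 and at 458 and 316 in Malat1 ASO, with the groups separate. In replicate 1 14 of the 15 rose (18.2% of all genes did), Arc by 1.19 (SE 0.148). In replicate 5 against 4 11 rose and 1 fell, where 9.69% of all genes rose and 8.49% fell. Their part in the members' differences was not tested.

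The genes whose levels ran most like a member's were sought over 96 sums of a library and a class, after each class was centred on its mean, among 9139 genes. For Fkbp5 these were Cpne3 (Pearson r 0.61) and Pde1c (0.60), for Tsc22d3 Ube2f (0.81) and Paip1 (0.80), for Zbtb16 Sirt1 (0.69) and Actr8 (0.66), and for Nr3c1 Dot1l (0.55) and Abca1 (0.54). The 96 points share 11 libraries and their depths, so the coefficients are a description.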

How the data were processed

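Nuclei of 11 libraries were analysed. Per the submitters' processing notes, the authors used Cell Ranger 5.0.0, Seurat 4 and the build mm10; the sources used here do not give whether intronic reads were counted. The authors deposited 1 matrix of raw UMI counts with per-nucleus metadata, of which the mitochondrial percent, the prediction score as a fraction, the cell class, the batch and the doublet call were used as deposited. No nucleus was removed, and the deposited doublet calls (10.4% of nuclei) were left in except in 1 alternative.

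Counts were summed per library and deposited class, where a library had at least 20 nuclei, and over all nuclei. They were fitted with edgeR 4.0.16 (R 4.3.3, TMM scaling, filterByExpr, quasi-likelihood test) with dosing group and batch as terms over all 11 libraries, and p-values were adjusted by the Benjamini-Hochberg method over all genes of a class. A call is an adjusted p under 0.05. Standard errors are the log2 difference divided by the square root of F. Levels are counts per 1e+06 UMIs of the sum (CPM). Of the 9 members, the number past the count filter was 9 in all nuclei, neurons and astrocytes, 8 in oligodendrocytes and leptomeningeal cells, 7 in Glia, vascular endothelium and pericytes, 4 in microglia and 1 in vascular smooth muscle, which gave 60 values over the classes, or 59 against ATV:BACE1.

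The members and lists were chosen with earlier results of these data known. All 9 members are named. Beside them the text names at most 2 genes of each list in each contrast, those with the largest absolute log2 difference in all nuclei, and the 2 genes most correlated with each of 4 members. Homer1 under DESeq2 was named after its values were seen. Same-numbered libraries of different groups deviated together from their group means (r 0.601 to 0.889 over 15 pairs and 7617 genes), and the batch labels are the source of the pairing. On simulated counts for OTV:Malat1 against nonTV:Malat1 the fit recovered 71.9% of genes changed by a log2 of 1 and 93.7% of those changed by 2 in oligodendrocytes (12305 genes), and 83.2% and 97.9% in neurons (20555 genes), with 5 and 17 false calls among the unchanged genes of the 2 classes. The simulated counts held no difference between replicate numbers, unlike the data, and no change under a log2 of 1. The members' differences in that comparison were all smaller, so these shares do not give their recovery. The 19 alternatives covered DESeq2 1.42.0, no block, no TMM, no filter, Malat1 left out, 3 filters on nuclei and 11 single libraries left out. Intervals cover counting error only.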

Additional observations from a re-analysis of the deposited data

Results flagged for a closer look

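Some members had all 3 replicates moving one way in 1 class and the other way in another under the same contrast, and the difference between classes was not tested. With 3 replicates such agreement also arises where nothing differs. Some of the values are close to 0, and the share of all genes with this pattern is not given. For OTV:Malat1 against nonTV:Malat1, Per1 had log2 differences of 0.11 in oligodendrocytes and 0.34 in astrocytes and of -0.22 in Glia. For OTV:Malat1 against ATV:BACE1, Sgk1 had 0.063 in neurons, 1.08 in oligodendrocytes, 0.52 in leptomeningeal cells and 0.54 in vascular endothelium, and -0.14 in Glia. In that comparison Zbtb16 had 0.63 in leptomeningeal cells and -0.93 in Glia. Nr3c2 had 0.016 in oligodendrocytes, 0.023 in astrocytes and 0.19 in pericytes, and -0.076 in Glia and -0.14 in vascular endothelium. For nonTV:Malat1 against ATV:BACE1, Nr3c1 had 0.28 in vascular endothelium and -0.12 in oligodendrocytes. Apart from Sgk1 in oligodendrocytes, none of these values passed the adjustment in edgeR. The Sgk1 call reuses the control libraries on which the members were chosen, so nothing is read from it. It was lost with DESeq2 and without the replicate block.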

How the results depend on the processing

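Without the replicate block, which removes the pairing by batch, 0 members were called in OTV:Malat1 against ATV:BACE1 in place of 1, and DESeq2 also gave 0. For replicate 1 against replicates 4 and 5 DESeq2 gave 5 calls in place of 11 (7456 in place of 11448 over all genes and classes), and for replicate 5 against 4 total counts without TMM gave 5 in place of 8 (6491 in place of 6079). The cause was not tested. Leaving out 1 library at a time gave 0 to 1 calls for OTV:Malat1 against nonTV:Malat1 (9 to 44 over all genes), 0 to 1 for OTV:Malat1 against ATV:BACE1 (9 to 32), 0 to 0 for nonTV:Malat1 against ATV:BACE1 (4 to 72), 4 to 11 for replicate 1 (6373 to 11278) and 0 to 9 for replicate 5 against 4 (792 to 6402). Over the 19 alternatives 0 to 14 of 60 values changed sign between the conjugates, and 0 to 12 of 59 in Malat1 ASO against ATV:BACE1. Vascular smooth muscle could not be fitted when nuclei under 1000 UMIs or with a prediction score under 0.5 were left out. Few UMIs limit Zbtb16 in the vascular classes and Fkbp5 in microglia.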
